A study of Mus musculus with 7 samples.

Results

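The VEGF ligands, their receptors and the core genes of blood vessel endothelium were followed in brown adipose tissue, the fat that burns fuel to make heat. The 10 genes were chosen by name, as rows of the deposited gene count table called Vegfa, Vegfb, Kdr, Flt1, Pecam1, Cdh5, Tek, Tie1, Nos3 and Egfl7. All 10 were found among 55487 genes, and all 10 passed the filter on low counts that left 16823 genes for testing. The tissue came from 7 mice of the NOD/ShiLtJ strain, which is prone to autoimmune diabetes. The CB-100 group (4 mice) received imBAT conditioned buffer, that is, the fraction above 100 kDa of buffer conditioned by brown adipocytes, under the skin at 1.5 mg per kg of body weight for 7 days. The sham group (3 mice) received KRBH buffer, and the labels repeat the CB-100 protocol for these mice without a schedule of their own. Mice had a blood glucose of 190 to 230 mg/dL at injection, and RNA was taken 2 to 8 weeks later, with no week given per mouse. Ages are not in the labels. Titles carry the code nd for each CB-100 sample and d for each sham sample, and whatever that code marks cannot be told apart from the injection.

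VEGF-A and VEGF-B are secreted growth factors that bind receptor tyrosine kinases on endothelial cells. VEGF-A acts mainly through the receptor encoded by Kdr, while the receptor encoded by Flt1 binds both ligands and, in its soluble form, acts as a trap. Brown fat is among the most densely vascularised tissues, and brown adipocytes themselves secrete VEGF-A. The remaining genes encode adhesion molecules of endothelial junctions (Pecam1, Cdh5), the angiopoietin receptor and its partner (Tek, Tie1), the endothelial nitric oxide synthase (Nos3) and a matrix protein secreted by endothelium (Egfl7). In whole tissue, fewer endothelial cells and less RNA per endothelial cell cannot be told apart.

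RefSeq (GRCm38.p6) gave start sites for 7 of the 10 genes, with 10 windows of 250 bases upstream. ETS factors bind many endothelial promoters, and their sites were searched on both strands as AGGAAG or CGGAAG. A match stood in 4 of the 10 windows, against 39.2% of 32851 windows of the same length in the table. The hypoxia factor core ACGTG stood in 1 of 10 (16.6% of all windows) and the GC box GGGCGG in 6 of 10 (32.7% of all). The windows of Egfl7, which has the largest estimate of the 10 genes, and of the receptors Flt1 and Kdr, whose count ratio is given further on, are shown 5′ to 3′ on the strand of the gene, with ETS matches in capitals. That of Egfl7, from the first of its 3 start sites, is chr2:26580833-26581082 on the plus strand, that of Flt1 chr5:147726012-147726261 on the minus strand and that of Kdr chr5:75978456-75978705 on the minus strand.
Egfl7: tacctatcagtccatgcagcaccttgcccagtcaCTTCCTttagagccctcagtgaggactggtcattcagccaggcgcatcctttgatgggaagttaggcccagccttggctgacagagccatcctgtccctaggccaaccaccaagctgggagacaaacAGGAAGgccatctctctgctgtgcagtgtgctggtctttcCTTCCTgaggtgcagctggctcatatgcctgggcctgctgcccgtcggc
Flt1: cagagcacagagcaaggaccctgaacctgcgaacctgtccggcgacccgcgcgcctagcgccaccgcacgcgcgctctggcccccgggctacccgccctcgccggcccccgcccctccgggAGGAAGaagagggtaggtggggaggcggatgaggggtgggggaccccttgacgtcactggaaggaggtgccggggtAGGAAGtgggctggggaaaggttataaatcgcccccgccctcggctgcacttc
Kdr: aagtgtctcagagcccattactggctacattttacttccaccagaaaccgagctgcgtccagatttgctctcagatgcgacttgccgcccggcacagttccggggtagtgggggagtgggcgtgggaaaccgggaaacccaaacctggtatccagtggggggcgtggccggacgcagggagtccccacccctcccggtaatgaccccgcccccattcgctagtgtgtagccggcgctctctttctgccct
Egfl7 has 3 matches here, Flt1 has 2 and the Kdr window has 0. The second Egfl7 window has 1 match and the third has 0, so the count depends on the start site taken. Egfl7 also hosts the endothelial microRNA miR-126a, shown with its seed (bases 2 to 8) in capitals.
mmu-miR-126a-3p: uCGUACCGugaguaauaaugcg
The Mir126a hairpin gene had 0 counts in each of the 7 libraries. The mature microRNA was not measured here.

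Library totals ran from 10815101 to 28528471 counts. CB-100 replicate 4 had the highest total, the largest share of counts from mitochondrially encoded genes (36.3%, against 14.3% to 25.3% in the other libraries) and the smallest scaling factor (0.755, against 0.954 to 1.25). Counts of Xist and Y-linked genes showed 1 male in each group, replicate 3 of both. Levels are given as CPM, the usual depth-scaled count, after TMM scaling. A gene is called where edgeR's quasi-likelihood test gave a Benjamini-Hochberg adjusted p under 0.05 over the 16823 genes. Endothelial RNA was present in each library, since the 36 other endothelial genes listed as markers summed to between 1515 and 3726 CPM. All 36 passed the filter, which does not ask for counts in each library. Lymphatic markers were scarce, at 32.5 to 55.8 CPM for 7 genes together.

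None of the 10 genes was called, 0 higher and 0 lower, where 3.70% of all tested genes were called, 1.42% higher and 2.28% lower in CB-100. At an unadjusted p under 0.05 there were 3 of 10, Egfl7, Nos3 and Tie1, against 23.9% of all tested genes. The estimates were above 0 for 9 of 10, with a median log2 change of 0.49, against 52.7% above 0 and a median of 0.032 over all tested genes. CPM of the groups did not overlap for 3 of 10, Egfl7, Nos3 and Vegfa, each higher in CB-100. Over all tested genes 23.3% showed no overlap, and 11.1% did so with CB-100 above. DESeq2's Wald test called 2 of the 10, Egfl7 and Nos3, where it called 11.7% of all genes. Egfl7 was the 1 gene called by limma voom with quality weights (6.84% of all genes called), by edgeR with no filter on low counts (2.87%) and by edgeR with at least 1 CPM in 3 libraries (4.42%).

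**Figure D1:**
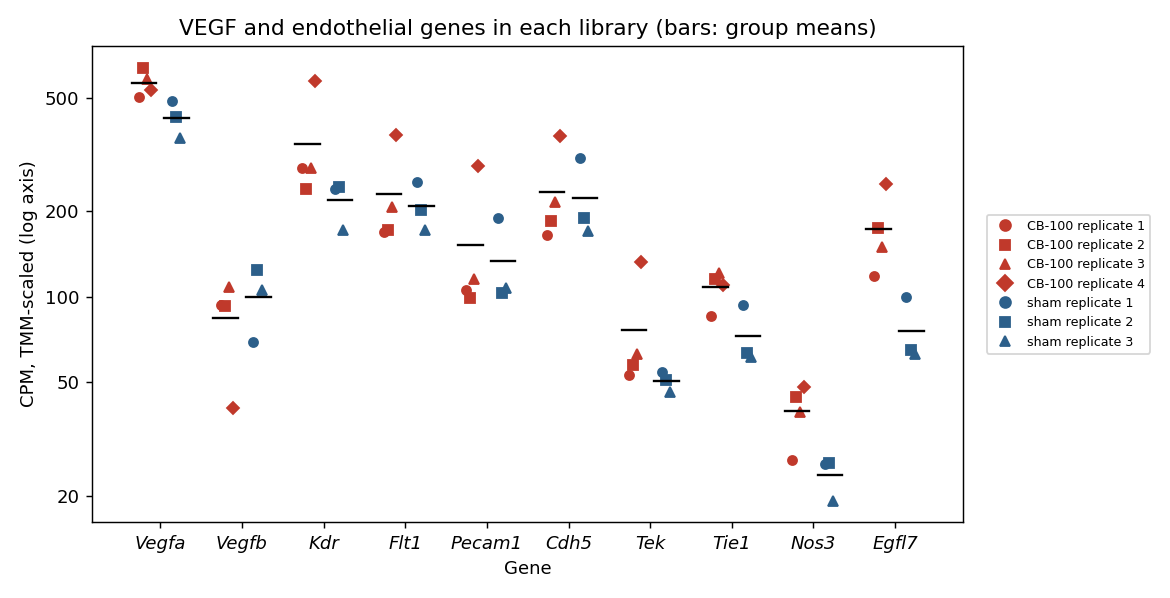
Level of each of the 10 genes in CPM (log axis) in the 4 CB-100 libraries (red) and 3 sham libraries (blue), with bars at the group means. CB-100 replicate 4, the red diamond, is the highest library for 7 of the 10 genes and the lowest for Vegfb. Vegfa, Nos3 and Egfl7 show no overlap between the groups.

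The ligand Vegfa, the highest of the 10 genes per kilobase of exon in all 7 libraries, had 504, 638, 581 and 535 CPM in CB-100 replicates 1 to 4 and 486, 428 and 361 CPM in sham replicates 1 to 3. The lowest CB-100 library was above the highest sham library, the closest pair being 504 and 486 CPM. The mean was 564 ± 58.6 CPM (SD, n = 4) against 425 ± 62.3 CPM (SD, n = 3), a log2 change of 0.41 (SE 0.19, adjusted p = 0.235 by edgeR). Vegfa lies at chromosome 17, 46016993 to 46032369 (minus strand, GRCm38), and its 10 annotated transcripts, which encode proteins of differing binding to matrix, are summed in 1 row. Over 17 alternative settings the log2 change of Vegfa was 0.28 to 0.51, and none called it.

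Vegfb, the ligand that binds Flt1 and not Kdr, had an estimate on the other side. It stood at 93.8, 93.1, 108 and 40.6 CPM in CB-100 and at 69.3, 124 and 105 CPM in sham. The groups overlapped, and the lowest value was that of CB-100 replicate 4. The log2 change of Vegfb was -0.25 (SE 0.33, adjusted p = 0.681 by edgeR) and -0.018 without that library. Vegfb (chromosome 19, 6982473 to 6987651) was the 1 gene of the 10 whose estimate lay below 0. Counts of Vegfa per count of Vegfb were 5.37 to 13.2 in CB-100 and 3.43 to 7.01 in sham, with overlap.

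Kdr, the main signalling receptor for VEGF-A, had 283, 238, 283 and 573 CPM in CB-100 and 240, 244 and 172 CPM in sham. CB-100 replicate 4 stood far above the other 3 of its group, and CB-100 replicate 2 lay inside the sham range. The log2 change of Kdr was 0.66 (SE 0.32, adjusted p = 0.247 by edgeR) and fell to 0.30 without CB-100 replicate 4. Flt1, the high-affinity receptor for both ligands, had 169, 171, 207 and 371 CPM in CB-100 and 252, 202 and 171 CPM in sham. The ranges overlapped widely, and the log2 change of Flt1 was 0.14 (SE 0.30, adjusted p = 0.811 by edgeR). Without CB-100 replicate 4 it was -0.19. Both receptors lie on the minus strand of chromosome 5, Kdr at 75932827 to 75978458 and Flt1 at 147561604 to 147726011.

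Within a library, the receptors can be compared without any scaling. Counts of Flt1 per count of Kdr were 0.595, 0.718, 0.733 and 0.647 in CB-100 and 1.05, 0.827 and 0.997 in sham. All 4 CB-100 ratios were lower than all 3 sham ratios, CB-100 replicate 4 included. This ratio was chosen with the counts known and is given without a test.

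The junction genes showed no separation of the groups. Cdh5, which encodes the cadherin of endothelial junctions (chromosome 8, 104101625 to 104144511), had 165, 184, 216 and 368 CPM in CB-100 and 306, 190 and 170 CPM in sham. Its log2 change was 0.072 (SE 0.32, adjusted p = 0.913 by edgeR). Pecam1, the platelet and endothelial cell adhesion molecule CD31 (chromosome 11, 106654217 to 106750628), had 105, 98.9, 115 and 287 CPM in CB-100 and 189, 104 and 107 CPM in sham. Its log2 change was 0.19 (SE 0.41, adjusted p = 0.816 by edgeR). In both genes CB-100 replicate 4 was highest and sham replicate 1 second, and without CB-100 replicate 4 the log2 changes turned to -0.24 for Cdh5 and -0.32 for Pecam1.

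Of the angiopoietin receptor pair, Tek, which encodes TIE2, had 53.2, 57.5, 62.8 and 133 CPM in CB-100 and 54.3, 50.8 and 46.1 CPM in sham. Here 3 of the 4 CB-100 libraries were close to sham and CB-100 replicate 4 stood apart. The log2 change of Tek was 0.61 (SE 0.32, adjusted p = 0.282 by edgeR) and 0.20 without that library. Tie1, an orphan receptor that associates with TIE2, had 85.9, 115, 121 and 110 CPM in CB-100 and 93.4, 63.6 and 61.6 CPM in sham. CB-100 replicate 4 was not the highest library for Tie1, and CB-100 replicate 1 lay below sham replicate 1. The log2 change of Tie1 was 0.57 (SE 0.20, adjusted p = 0.123 by edgeR) and 0.56 without CB-100 replicate 4. Tek lies at 94739289 to 94874976 and Tie1 at 118471191 to 118490061 on chromosome 4.

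Nos3, the synthase that makes the vasodilator nitric oxide in endothelium, was the lowest of the 10 per kilobase of exon in all 7 libraries. It had 26.8, 44.5, 39.5 and 48.1 CPM in CB-100 and 25.8, 26.0 and 19.2 CPM in sham. The groups did not overlap, although CB-100 replicate 1 and sham replicate 2 were almost equal. The mean was 39.7 ± 9.31 CPM (SD, n = 4) against 23.7 ± 3.87 CPM (SD, n = 3), a log2 change of 0.75 (SE 0.22, adjusted p = 0.0826 by edgeR). DESeq2's Wald test called Nos3 (log2 change 0.74, adjusted p = 0.0298). Without CB-100 replicate 4 the log2 change of Nos3 was 0.64. Its count is uncertain: it was not a whole number in any of the 7 libraries, and Nos3 (chromosome 5, 24364810 to 24384474, plus strand) shares 1040 exon bases with the antisense gene Gm15587 and 294 with Atg9b on the opposite strand. Those partners held 435 and 211 counts over all 7 libraries, against 374 to 1033 counts of Nos3 in each.

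Egfl7 had the largest estimate. It stood at 119, 174, 150 and 248 CPM in CB-100 and at 99.7, 65.1 and 62.9 CPM in sham. The lowest CB-100 library was above the highest sham library, with CB-100 replicate 1 nearest to sham replicate 1. The mean was 173 ± 55.2 CPM (SD, n = 4) against 75.9 ± 20.6 CPM (SD, n = 3), a fold of 2.28 and a log2 change of 1.19 (SE 0.28, adjusted p = 0.0512 by edgeR), which just missed the threshold. DESeq2's Wald test (adjusted p = 0.00169) and limma voom (adjusted p = 0.0244) called Egfl7. With each library left out in turn, the log2 change was 0.96 to 1.42 and the adjusted p by edgeR 0.0546 to 0.190. In the 5 females alone the log2 change was 1.12 (adjusted p = 0.247 by edgeR).

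The neighbour of Egfl7 bears on how its count can be read. Egfl7 (chromosome 2, 26580014 to 26593120, plus strand) meets Agpat2, an acyltransferase of triglyceride synthesis on the opposite strand, tail to tail over 64 of its 3581 exon bases. Agpat2 was called higher in CB-100 (log2 change 2.20, SE 0.49, adjusted p = 0.0476 by edgeR), with 589.5, 219.5, 392.2 and 489.9 CPM in CB-100 and 56.1, 163 and 56.6 CPM in sham. That call was lost without any 1 library except sham replicate 2 (log2 change 1.94 to 2.42, adjusted p = 0.065 to 0.172 by edgeR) and with no filter on low counts (adjusted p = 0.123 by edgeR). It was also lost with sex as covariate (adjusted p = 0.0623 by edgeR) and in the 5 females alone (adjusted p = 0.239 by edgeR). Counts of Egfl7 and of Agpat2 were whole numbers in all 7 libraries. The libraries were ordered differently in the pair: sham replicate 2 had the most Agpat2 of the sham group and 65.1 CPM of Egfl7, while CB-100 replicate 1 had the most Agpat2 and the least Egfl7 of its group. Strand handling in counting is not given in the sources used here, so reads of the shared bases cannot be assigned with certainty, and their part in the Egfl7 estimate was not tested. The gene model Gm20532 shares 264 exon bases with Egfl7 on the same strand and had 0 counts.

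**Figure D2:**
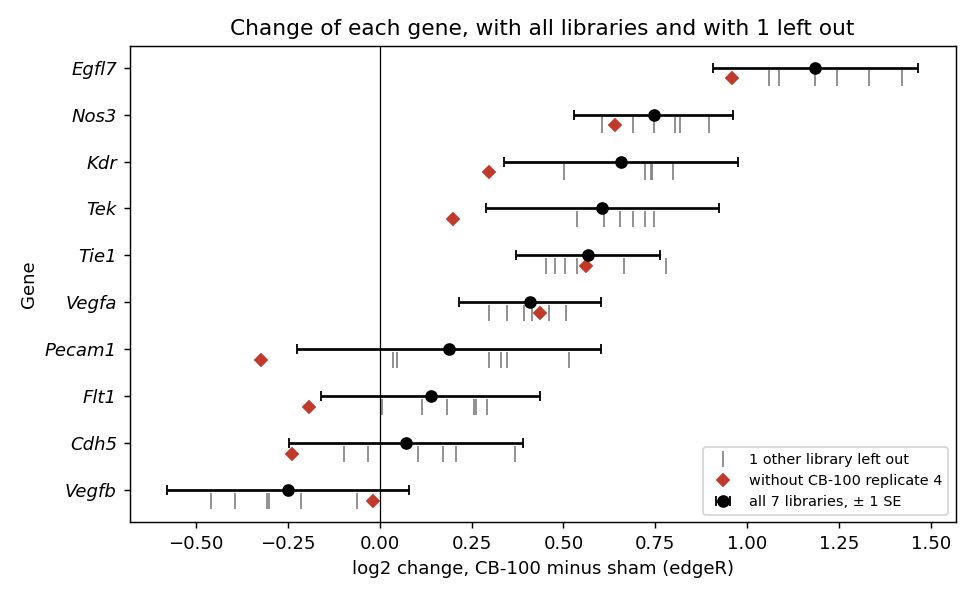
Log2 change from sham to CB-100 of each gene (x axis; edgeR) with all 7 libraries (black, bars of 1 SE), without CB-100 replicate 4 (red diamonds) and without each other library (grey ticks). Egfl7 keeps the largest estimate at 0.96 or above, while Pecam1, Cdh5 and Flt1 move below 0 without CB-100 replicate 4.

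The 10 genes differed in how far their estimates depended on CB-100 replicate 4. Without it, 6 of 10 estimates were above 0 in place of 9, the median log2 change was 0.25 in place of 0.49, and again 0 of 10 were called, against 3.67% of all genes in that fit. CB-100 replicate 4 was the highest library for 7 of the 10, whereas 21.6% of all tested genes were highest there. The estimates of Vegfa, Tie1 and Nos3 were 0.44, 0.56 and 0.64 without it, close to 0.41, 0.57 and 0.75 with it. Those of Kdr and Tek were 0.30 and 0.20. Sham replicate 1, with the largest scaling factor (1.25) and smallest mitochondrial share (14.3%), weighed the other way. Without sham replicate 1, the estimates of Cdh5, Pecam1 and Flt1 rose to 0.37, 0.52 and 0.29, and only that of Vegfb fell (-0.46).

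Described over the 7 libraries, which share their scaling, the levels of Flt1, Pecam1 and Cdh5 ran together, with Pearson correlations of log2 CPM of 0.963 to 0.964 between each pair. Kdr and Tek formed another close pair (0.952). Vegfa, Tie1, Nos3 and Egfl7 ran together at 0.834 to 0.934, while Vegfa with Pecam1 stood at 0.117. Vegfb ran against Pecam1 (-0.944). Each of these coefficients rests on 7 libraries. Among other protein-coding genes, those with the pattern most like Vegfa were Hivep3 (0.987), Camta2 (0.980), Strn4 (0.979), Dcaf15 (0.974) and P2rx7 (0.970). Those most like Pecam1 were Smarce1 and Jak2 (both 0.989), Afap1l1 (0.979), Hrct1 (0.973) and Gla (0.972).

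Counts taken relative to Cdh5 in the same library do not depend on scaling and compare endothelial genes with each other. Of the other 9 genes, 3 showed no overlap between the groups by this measure, Egfl7, Kdr and Tek, each higher in CB-100, where 5.98% of all tested genes showed none. That share is over genes of all cell types in either direction. No share was taken for endothelial genes alone, so an excess among them cannot be read from it. Egfl7 gave 0.720, 0.947, 0.696 and 0.674 counts per Cdh5 count in CB-100 and 0.325, 0.344 and 0.371 in sham, a wide gap. Kdr gave 1.72, 1.29, 1.31 and 1.56 against 0.783, 1.29 and 1.01, so that its lowest CB-100 value and its highest sham value were nearly the same. Tek gave 0.323, 0.313, 0.291 and 0.361 against 0.177, 0.268 and 0.272. Flt1 stayed between 0.824 and 1.06 in all 7 libraries and Pecam1 between 0.534 and 0.780, with overlap. Vegfa, Vegfb, Tie1 and Nos3 overlapped too, and CB-100 replicate 4 had the lowest ratio of its group for each of them.

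**Figure D3:**
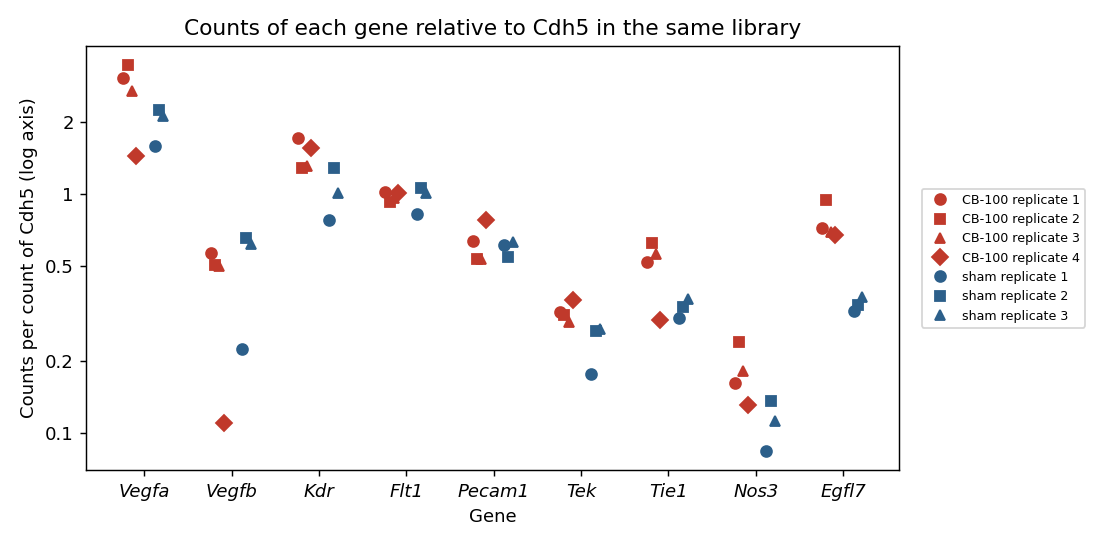
Counts of 9 genes per count of Cdh5 in the same library (log axis), with the 4 CB-100 libraries in red and the 3 sham libraries in blue. Egfl7 separates the groups most clearly, at 0.674 to 0.947 in CB-100 and 0.325 to 0.371 in sham, while Flt1 lies near 1 count per Cdh5 count in all 7 libraries.

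Levels of different genes were compared per kilobase of annotated exon, as CPM per kb. Vegfa led at 118 ± 21.6 CPM per kb (SD, n = 7). Vegfb followed at 56.5 ± 17.3 and Cdh5 at 54.3 ± 18.6, then Egfl7 at 36.6 ± 18.4 and Kdr at 32.1 ± 14.4. Pecam1 stood at 23.1 ± 11.3, Tie1 at 18.9 ± 4.88, Flt1 at 16.3 ± 5.38, Tek at 13.9 ± 6.41 and Nos3 at 7.95 ± 2.67 CPM per kb. Vegfa exceeded Vegfb, and Tek exceeded Nos3, in 7 of 7 libraries. The other neighbours in this order changed places in at least 1 library and are not separated beyond their spread, such as Pecam1 and Tie1 (4 of 7). Exon lengths are those of all annotated transcripts joined, which lowers the figure for genes with long alternative ends such as Flt1 (13504 exon bases).

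In the rest of the VEGF and angiopoietin axis, 0 of 22 tested genes were called higher and 0 lower, with 11 estimates above 0, 11 below and a median log2 change of 0.031. The members with the smallest p were Nrp2, a co-receptor for VEGF ligands, and Arnt, the partner of the hypoxia factors. Nrp2 had 284, 246, 249 and 246 CPM in CB-100 and 100.4, 189 and 149 CPM in sham, without overlap (log2 change 0.81, SE 0.22, adjusted p = 0.0711 by edgeR). Arnt gave a log2 change of -0.41 (adjusted p = 0.115 by edgeR). Epas1, the hypoxia factor HIF-2 alpha of endothelium and brown fat, stood at 762 to 838 CPM in CB-100 and 770 to 898 CPM in sham. Angpt1, the agonist of TIE2, gave a log2 change of -1.12 and Angpt2, its context-dependent antagonist, one of 1.03 (adjusted p = 0.169 and 0.268 by edgeR). Angpt2 had 4.15, 6.58, 5.54 and 17.9 CPM in CB-100 and 5.47, 2.54 and 4.56 CPM in sham, and its log2 change was 0.36 without CB-100 replicate 4. Angpt1 is uncertain, since it shares 737 exon bases with Gm17473 on the opposite strand and had non-whole counts in 6 libraries. Counts of Angpt2 per count of Angpt1 were 0.281, 0.229, 0.196 and 1.84 in CB-100 and 0.173, 0.0834 and 0.0650 in sham, without overlap. That ratio was among several taken, is given without a test and rests on the uncertain count of Angpt1. Counts of Tie1 per count of Tek were 0.825 to 2.0 in CB-100 and 1.25 to 1.72 in sham, with overlap. The ligands Pgf and Angpt4 were too rare to be tested, with at most 42 counts in any library for Pgf and 14 for Angpt4.

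Among the 36 other endothelial genes 0 were called in either direction, 28 estimates were above 0 and the median log2 change was 0.49. Without CB-100 replicate 4, 18 of 36 were above 0 and the median was -0.0032. That library was the highest for 26 of the 36. Rasgrp3, an exchange factor for Ras that acts in endothelium, gave a log2 change of 1.37 (SE 0.37, adjusted p = 0.0714 by edgeR) and Ets1, an ETS factor, one of 0.94 (SE 0.26, adjusted p = 0.0745 by edgeR). Both showed no overlap, with Rasgrp3 at 25.3 to 55.0 CPM in CB-100 and 7.39 to 16.4 CPM in sham, and Ets1 at 91.4 to 188 CPM against 57.4 to 75.4 CPM. In the list, 4 of 36 genes lay above sham in CB-100 without overlap and 0 lay below. Over all tested genes 11.1% showed no overlap with CB-100 above, so the list was near that share. Gpihbp1, which anchors lipoprotein lipase on capillaries, stood at 202 CPM in CB-100 replicate 4 and at 34.1 to 67.6 CPM in the other 6 libraries. It was chosen after its values were seen.

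Notch and arterial genes had 0 calls of 14 and a median log2 change of 0.29 (0.031 without CB-100 replicate 4). Hes1, a target of Notch signalling, gave a log2 change of 1.24 (adjusted p = 0.0642 by edgeR) and Unc5b, a netrin receptor of tip cells, one of 1.14 (adjusted p = 0.110 by edgeR). Among venous and adhesion genes 1 of 9 was called: Sele, the E-selectin that inflamed endothelium displays to leukocytes, fell by 2.41 on the log2 scale (standard error 0.49, adjusted p = 0.0366 by edgeR). Sele had 1.29, 1.00, 1.37 and 0.233 CPM in CB-100 and 3.90, 6.46 and 4.84 CPM in sham, low levels without overlap. It was no longer called without any 1 of CB-100 replicates 1 to 3 or sham replicates 1 to 3 (adjusted p = 0.058 to 0.134 by edgeR). Lymphatic markers had 0 calls of 7, with the smallest p for Pdpn (log2 change 1.22) and Mmrn1 (-0.62).

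Nitric oxide pathway genes other than Nos3 had 0 calls of 17 and a median log2 change of 0.33 (0.032 without CB-100 replicate 4). Nos2, the inducible synthase, had 11.1, 14.4, 15.0 and 12.5 CPM in CB-100 and 5.78, 7.83 and 8.46 CPM in sham, without overlap (log2 change 0.85, SE 0.20, adjusted p = 0.0511 by edgeR). Spr, which makes the cofactor of the synthases, gave a log2 change of -0.54 (adjusted p = 0.119 by edgeR) and had non-whole counts.

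Vegfa is itself a gene induced by hypoxia, and the other hypoxia response genes were split. Of 18 tested, 0 were called higher and 2 lower, where 2.28% of all tested genes were called lower. There were 9 estimates above 0, 9 below and a median log2 change of -0.12. Without CB-100 replicate 4, 6 of 18 were above 0, the median was -0.23 and 3 were called lower. In that fit 3.67% of all genes were called in either direction. Bnip3, a mitophagy receptor, fell by 1.34 on the log2 scale (standard error 0.24, adjusted p = 0.0318 by edgeR) and Pdk1, the kinase that blocks pyruvate dehydrogenase, by 1.05 (SE 0.20, adjusted p = 0.0344 by edgeR). Pdk1 had 75.6 to 118 CPM in CB-100 and 175 to 249 CPM in sham. Bnip3 had non-whole counts in all 7 libraries and shares 504 exon bases with Gm45507 on the opposite strand, and is uncertain. Neither was called without CB-100 replicate 1, 2 or 3 or without sham replicate 1 or 3, and Pdk1 was not without sham replicate 2. Angiogenic ligands and inhibitors outside the VEGF family had 0 calls of 19 and a median log2 change of 0.46 (0.30 without CB-100 replicate 4). Col18a1, whose collagen is the source of endostatin, gave a log2 change of 1.00 (SE 0.25, adjusted p = 0.0584 by edgeR). Apln, the ligand apelin of endothelial tip cells, gave 2.97 (SE 0.79, adjusted p = 0.0700 by edgeR), with 9.02, 1.83, 1.22 and 6.09 CPM in CB-100 and 0.833, 0.687 and 0.235 CPM in sham.

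Markers of cells around and inside the vessels were also high in CB-100 replicate 4. Pericyte and smooth muscle markers summed to 2798 CPM in that library, against 1234 to 1375 CPM in the other CB-100 libraries and 820 to 1229 CPM in sham. The sums did not overlap between the groups, although the closest pair, 1234 and 1229 CPM, was almost equal. Their median log2 change was 0.53 (0.22 without that library), with 0 of 14 called, and the smallest p for the pericyte genes Cspg4 (log2 change 0.82, adjusted p = 0.0831 by edgeR) and Pdgfrb (0.72, adjusted p = 0.138 by edgeR). Red blood cell markers summed to 4544 CPM there and to 787 to 2201 CPM in the other 6 libraries. Each of the 5, Hba-a2 and Hbb-bs among them, had its highest level in that library, and 0 of 5 were called (median log2 change 0.37, and -0.47 without it). The globin genes among them are near-identical copies with non-whole counts and are uncertain. Alas2, which is not a globin gene, is uncertain too. It had non-whole counts in all 7 libraries and shares 311 exon bases with Apex2 on the opposite strand.

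Brown adipocyte markers had 0 calls of 12 and a median log2 change of -0.0018. Their sum was narrowly highest in CB-100 replicate 4, at 8617 CPM, against 4256 to 7202 CPM in the other CB-100 libraries and 5183 to 8474 CPM in sham. That library was the highest for 3 of the 12 markers. Ucp1, the uncoupling protein of heat production, stood at 450 to 2237 CPM in CB-100 and 46.1 to 875 CPM in sham, so the defining marker of the labelled tissue was present in each library. Dio2, the deiodinase that activates thyroid hormone, had 98.7, 107, 43.6 and 377 CPM in CB-100 and 26.1, 27.8 and 1.03 CPM in sham. Its log2 change was 3.10 (adjusted p = 0.137 by edgeR) and 2.19 without CB-100 replicate 4. Adipoq gave -0.91 (adjusted p = 0.0512 by edgeR). Skeletal muscle markers, with 0 calls of 8, summed to 233 to 1727 CPM in CB-100 and 667 to 1494 CPM in sham, the smallest p belonging to Mylpf and Actn3. Macrophage markers had 0 calls of 8, led by Adgre1 and Cd68, and summed to 103 to 248 CPM in CB-100 and 122 to 187 CPM in sham. Of 7 lymphocyte markers 3 passed the filter and 0 were called, with Cd3e at -1.38 and Cd4 at -0.34. They summed to 2.22 to 3.56 CPM in CB-100 and 2.35 to 6.56 CPM in sham. Fibroblast and preadipocyte markers had 0 calls of 6, with Col3a1 at 1.87 (adjusted p = 0.0616 by edgeR) and Dcn at -0.74 (adjusted p = 0.0549 by edgeR). Their sum did not overlap between the groups, at 753 to 1536 CPM in CB-100 and 312 to 700.0 CPM in sham. Col3a1 (mean 665 CPM in CB-100, 182 in sham) and Col1a1 (345 and 100 CPM) carried most of that sum. Dcn was lower in CB-100 without overlap (mean 64.2 against 107 CPM), and Pdgfra, Lum and Dpt overlapped. The Schwann cell sum did not overlap between the groups, at 110.5 to 113 CPM in CB-100 and 65.6 to 78.5 CPM in sham. Of 5 Schwann cell markers 1 was called, Pmp22, a myelin protein that other cells also make (log2 change 0.80, SE 0.17, adjusted p = 0.0419 by edgeR), and this call was lost without any 1 of 6 libraries, CB-100 replicate 4 being the exception. The part of these cells in the levels of the 10 genes was not tested.

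**Figure D4:**
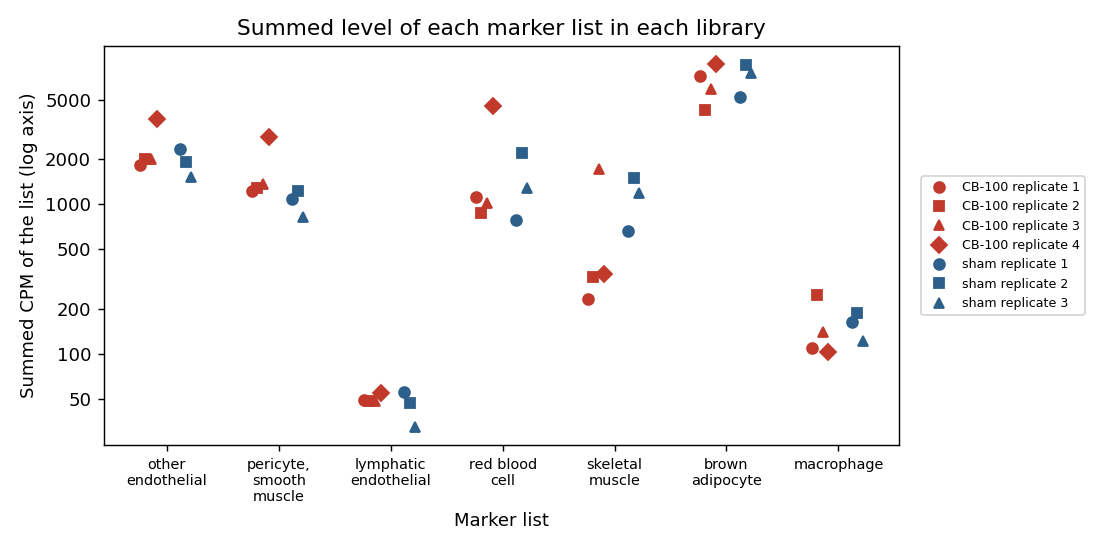
Summed CPM (log axis) of 7 marker lists in the 4 CB-100 libraries (red) and 3 sham libraries (blue). CB-100 replicate 4 is the red diamond. It is the highest library for the other endothelial (3726 CPM), pericyte and smooth muscle (2798 CPM) and red blood cell (4544 CPM) lists. It is narrowly the highest for brown adipocyte markers (8617 CPM, against 8474 CPM in sham replicate 2). It is not the highest for lymphatic, skeletal muscle or macrophage markers.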

How the data were processed

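RNA from brown adipose tissue of 7 mice was sequenced, and reads were mapped by STAR 2.7.9a against Ensembl 101, as the labels' protocols say. Per the submitters' processing notes, the tools included featureCounts 2.0.3, Salmon 1.5.2, edgeR and limma, whose uses are not described. The authors deposited 1 table of genes by samples that holds expected counts (not whole for some genes) with no normalization, as its values show. Strandedness and the counting settings were not given. After 287 identical repeats of 55774 lines were dropped, 99.5% of identifiers were in GENCODE M21 (GRCm38), used for coordinates, exon lengths and overlaps.

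Rounded counts were filtered (filterByExpr), scaled by TMM and compared between the groups by the quasi-likelihood test of edgeR 4.0.16 in R 4.3.3, with robust dispersions and no covariate, two-sided, at an adjusted p of 0.05. The SE is the absolute log2 change over the square root of F. The test was checked on simulated data. Replicates were numbered in sample order, so nothing pairs the mice. That they are separate animals is implied by codes in the titles only, and a p-value speaks only to the scatter of these samples, which may be technical. The common biological coefficient of variation was 28%, and rare genes such as Sele, with as few as 5 counts in a library, carry counting error besides.

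The members and the gene lists were chosen with earlier results of these data known. Genes named are the 10 members, up to 4 called genes of each other list or else the 2 with the smallest p, Ucp1, Agpat2 and Mir126a. The 5 genes outside the lists most like Vegfa, and the 5 most like Pecam1, are named too. Other names were chosen after their values were seen. All 225 listed symbols were found, 2 of them as Car9 and Ero1l. Sequences are from RefSeq. Alternatives were DESeq2 1.42.0, limma 3.58.1 voom, other scalings and filters, each library left out, sex as covariate, females only, and leaving out mitochondrial or non-coding genes.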

Additional observations from a re-analysis of the deposited data

Results flagged for a closer look

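Within the CB-100 group, 1 library stood apart from the other 3 by the gap to its nearest neighbour relative to the whole range (Dixon's criterion). This was so for 3 of the 10 members and 7 of 16 summed lists. The criterion flags about 1 in 20 groups of independent, normally distributed values. These groups share the same libraries and their scaling, so the flags are not independent and that rate does not apply to them. Kdr reached 573 CPM, Pecam1 287 CPM and Tek 133 CPM in CB-100 replicate 4. The same library stood apart for the summed CPM of the other endothelial genes (3726), pericyte and smooth muscle markers (2798), the other VEGF and angiopoietin genes (2710), nitric oxide pathway genes (2686), lymphatic markers (55.4) and red blood cell markers (4544). For skeletal muscle markers it was CB-100 replicate 3, at 1727 CPM. The lymphatic sum was not the highest of all libraries, since sham replicate 1 had 55.76 CPM. It was flagged because the other CB-100 sums lay close together, at 48.59 to 49.15 CPM.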

How the results depend on the processing

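No paired analysis was possible because the labels give the mice of the 2 groups no shared number. Each alternative was set against the fit with all 7 libraries. Over all genes, the calls, 239 higher and 383 lower, became 921 and 1047 with DESeq2's Wald test, 454 and 696 with limma voom, 86 and 152 with sex as covariate, and 0 and 0 in females only (2578 at an unadjusted p under 0.05), and 590 were lower with no filter. With 1 library left out they ran from 0 to 227 higher and from 8 to 383 lower, the fewest without sham replicate 3.

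Members called higher, 0 in the fit reported, numbered 2 with DESeq2's Wald test, and 1 each with limma voom, no filter and at least 1 CPM in 3 libraries. Egfl7 accounts for each, with log2 changes of 1.18, 1.12, 1.15 and 1.19, and Nos3 (0.74) for the other DESeq2 call. Directions turned for Flt1 (-0.013 with voom; -0.19 to 0.29 with a library left out), Pecam1 (-0.052 with voom; -0.32 to 0.52) and Cdh5 (-0.060 in females only; -0.24 to 0.37, below 0 without CB-100 replicate 4, sham replicate 2 or sham replicate 3). The other 5 members kept direction and side of the threshold in all 17 alternatives.

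Of the lists, calls higher were 1 in the VEGF and angiopoietin axis with no filter, DESeq2 or voom, and in the other endothelial list 1, 2 and 2. Notch genes gave 1 with no filter and 2 with DESeq2, pericyte markers 1 with either (0 to 1 with a library left out), hypoxia genes 3 with DESeq2, and the angiogenic list 1, 3 and 1 with no filter, DESeq2 and voom (0 to 1 with a library left out). Nitric oxide genes gave 1 with upper quartile scaling, no filter, at least 1 CPM, DESeq2, voom or protein-coding genes only. Fibroblast markers gave 2 higher with DESeq2 or voom (0 to 2 with a library left out) and 1 lower with these or no filter. Brown adipocyte markers gave 1 lower with no filter, at least 1 CPM, DESeq2, voom or protein-coding genes only. Schwann markers gave 2 with DESeq2 or voom and 0 to 2 with a library left out. The called Sele, Bnip3, Pdk1, Pmp22 and Agpat2 were all lost (0 calls) with sex as covariate and in females only, and lists held 0 to 1 (venous), 0 to 3 (hypoxia) and 0 to 4 (skeletal muscle) calls lower with a library left out. Medians moved to -0.0070 (hypoxia) and 0.083 (lymphocyte) with no filter, -0.86 (lymphocyte) with at least 1 CPM, and 0.079 (venous) and -1.95 (muscle) in females only. With a library left out they ran over -0.013 to 0.17 (VEGF and angiopoietin axis), -0.0032 to 0.63 (other endothelial), -0.042 to 0.33 (venous), 0.032 to 0.48 (nitric oxide), -0.23 to 0.055 (hypoxia), -0.44 to 0.12 (lymphocyte), -2.06 to -0.53 (muscle), 0.58 to 0.87 (Schwann) and 0.22 to 0.88 (fibroblast).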
